A study of Mus musculus with 12 samples.

Results

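Immediate early genes are the first genes that a neuron transcribes when it becomes active. Calcium entry and growth factor signals switch on kinases that act on transcription factors already bound at these promoters, chiefly CREB, SRF with its Elk partners and MEF2. New protein is not needed for this step, and the mRNAs rise within minutes and are short-lived. In the cortex, their level is widely read as a trace of recent activity such as sensory input, handling or novelty.

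The 10 genes described here were Fos, Fosb and Junb, which encode subunits of the AP-1 transcription factor, Egr1, Egr2 and Egr4, which encode zinc finger transcription factors of the early growth response family, Npas4, which encodes a neuron-specific transcription factor, Nr4a1, which encodes an orphan nuclear receptor, Arc, which encodes a capsid-like protein of dendrites and synapses, and Dusp1, which encodes a phosphatase that switches off MAP kinases. They were chosen by name, with earlier results of these data known, out of 14997 detected genes, those that reached 10 counts in each library, and all 10 passed that filter. Expected counts and TPM (a read share corrected for transcript length) were summed over the annotated transcripts of each gene.

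The RNA-seq values come in 6 sets, each named for 1 numbered mouse (678, 687, 688, 698, 700 and 703) and called a library here. The series lists more samples than sets, with paired replicate numbers within each genotype. Whether a set holds 1 of these samples or several is not stated. The study compared male Nestin-Cre mice, its Larp1 WT controls, with male mice that carry Nestin-Cre and a floxed Larp1 gene on both alleles (Larp1 cKO), 3 of each on a C57BL/6J background, and isolated RNA from posterior cortex. For brain regions to be frozen, the methods describe an isoflurane overdose and perfusion through the heart with cold saline that held cycloheximide, an inhibitor of translation, before dissection. They do not say whether the sequenced mice were treated in this way, and its part in the levels given here was not tested. Both groups carry Nestin-Cre, which acts in progenitors of neurons and some glia. In Larp1 cKO mice the floxed gene is thus removed in those lineages and is kept in others. The age of the sequenced mice was not stated. The genotype of each numbered mouse is unknown here, so no genotype was assigned, no groups were compared and no test was run. Values are given for each library, and a difference between libraries can reflect genotype, the animal or its handling, which cannot be told apart here. The tissue is also inferred from the labels, as the study sequenced RNA of cortical synaptosomes too. Transcripts of excitatory neurons, inhibitory neurons, oligodendrocytes, astrocytes and microglia were present in all 6 libraries, as were Cbln1 (3.77 to 10.4 TPM) and Calb1 (21.8 to 33.1 TPM) of a list of 5 cerebellar genes. The other 3 of that list, Pcp2, Gabra6 and Cbln3, were at most at 0.14 TPM.

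Of the 10 genes, 8 matched an entry in the table of RefSeq promoters (GRCm38.p6), which gives 250 bases before and 50 bases after a start site. Arc and Egr1 had no match. Where a gene had several entries, the one nearest to the start of its most abundant transcript was used. The letters TGACG, the core of the cyclic AMP response element (CRE) that CREB binds, stood on either strand in the promoter of 8 of these 8 genes, against 20.8% of all 32851 promoters in the table. Of these, 5 are shown, 5′ to 3′ on the strand of the gene, as examples that hold the full CRE, the CArG box or more than 1 copy of TGACG. Capitals mark TGACG or its reverse complement CGTCA and, in Egr2, the CArG box that SRF binds.
Fos (chr12:85473640-85473939, plus strand): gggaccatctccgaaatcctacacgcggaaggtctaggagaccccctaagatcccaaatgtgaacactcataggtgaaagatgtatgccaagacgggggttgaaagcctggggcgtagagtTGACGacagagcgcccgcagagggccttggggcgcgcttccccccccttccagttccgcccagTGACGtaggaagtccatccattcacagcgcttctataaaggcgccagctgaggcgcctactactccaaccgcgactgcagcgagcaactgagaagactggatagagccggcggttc
Nr4a1 (chr15:101266596-101266895, plus strand): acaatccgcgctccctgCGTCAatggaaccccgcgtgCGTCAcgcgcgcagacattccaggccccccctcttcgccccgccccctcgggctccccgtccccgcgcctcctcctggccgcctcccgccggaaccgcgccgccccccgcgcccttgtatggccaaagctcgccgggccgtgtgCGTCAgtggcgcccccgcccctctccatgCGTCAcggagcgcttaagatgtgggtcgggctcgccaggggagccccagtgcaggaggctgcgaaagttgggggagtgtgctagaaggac
Npas4 (chr19:4989922-4990221, minus strand): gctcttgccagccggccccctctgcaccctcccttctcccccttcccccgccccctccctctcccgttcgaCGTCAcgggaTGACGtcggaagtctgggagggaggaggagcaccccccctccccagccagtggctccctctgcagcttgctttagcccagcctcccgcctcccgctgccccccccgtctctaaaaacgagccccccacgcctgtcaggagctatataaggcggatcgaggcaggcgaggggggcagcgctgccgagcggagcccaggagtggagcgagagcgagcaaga
Egr2 (chr10:67537619-67537918, plus strand): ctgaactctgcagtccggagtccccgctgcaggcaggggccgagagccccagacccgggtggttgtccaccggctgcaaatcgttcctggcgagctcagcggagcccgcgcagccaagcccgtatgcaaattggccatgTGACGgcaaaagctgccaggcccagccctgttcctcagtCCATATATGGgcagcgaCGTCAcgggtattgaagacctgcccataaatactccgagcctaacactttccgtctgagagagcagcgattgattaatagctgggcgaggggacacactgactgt
Dusp1 (chr17:26508423-26508722, minus strand): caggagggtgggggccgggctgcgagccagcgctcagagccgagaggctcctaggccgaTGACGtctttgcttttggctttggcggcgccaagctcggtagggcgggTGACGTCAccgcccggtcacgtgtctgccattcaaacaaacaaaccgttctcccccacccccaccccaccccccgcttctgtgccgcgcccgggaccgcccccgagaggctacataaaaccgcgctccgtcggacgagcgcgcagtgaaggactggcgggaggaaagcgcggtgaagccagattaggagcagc

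In Fos, TGACG began 129 and 66 bases before the start site. In Nr4a1, 4 copies of CGTCA were present, the nearest to the start beginning 40 bases before it. Dusp1 held the complete CRE (TGACGTCA) 143 bases before its start, the one full palindrome among the 8 promoters, against 1.79% of all promoters. The CArG box of Egr2, starting 72 bases upstream, lay between its copies of TGACG and CGTCA, and 1.63% of all promoters held one. A TATA box, searched as the 7 bases TATAWAW with W for A or T, was found in Egr4, Npas4 and Junb (12.5% of all promoters). In Junb it began at the RefSeq start site itself, which lies 30 bases from the start annotated by GENCODE. This motif is strict. The Fos promoter printed above holds TATAAAG upstream of its start, which was not counted, so a missing match does not mean that a promoter lacks a TATA box. The EGR motif GCGNGGGCG was found in Fosb and Nr4a1 (5.55% of all promoters), and the E-box CACGTG in Dusp1 (7.15%). The AP-1 motif TGANTCA and the NBRE AAAGGTCA, bound by Nr4a1, were found in 0 of the 8 windows (7.81% and 1.51% of all promoters). Both strands were searched, and TGACG is part of the full CRE. The window used for Npas4 starts 345 bases from the start of its most abundant annotated transcript. A match describes letters in a short window and does not show binding.

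All 10 genes were highest in the library of mouse 688. This library was highest in TPM for 6.39% of all detected genes. Together the 10 genes held 0.0700% of TPM in mouse 688, against 0.0296% in mouse 700, 0.0289% in mouse 698, 0.0287% in mouse 678, 0.0253% in mouse 687 and 0.0201% in mouse 703. The highest library was thus 3.48 times the lowest, with a 95% interval of 3.43 to 3.54 for counting error alone. Mouse 703 was at the other end and was the lowest library for 7 of the 10 genes, against 5.19% of all detected genes. Egr1 and Egr4 were lowest in mouse 687, and Dusp1 in mouse 698. In this bulk tissue, more RNA per cell and more active cells cannot be told apart.

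**Figure D1:**
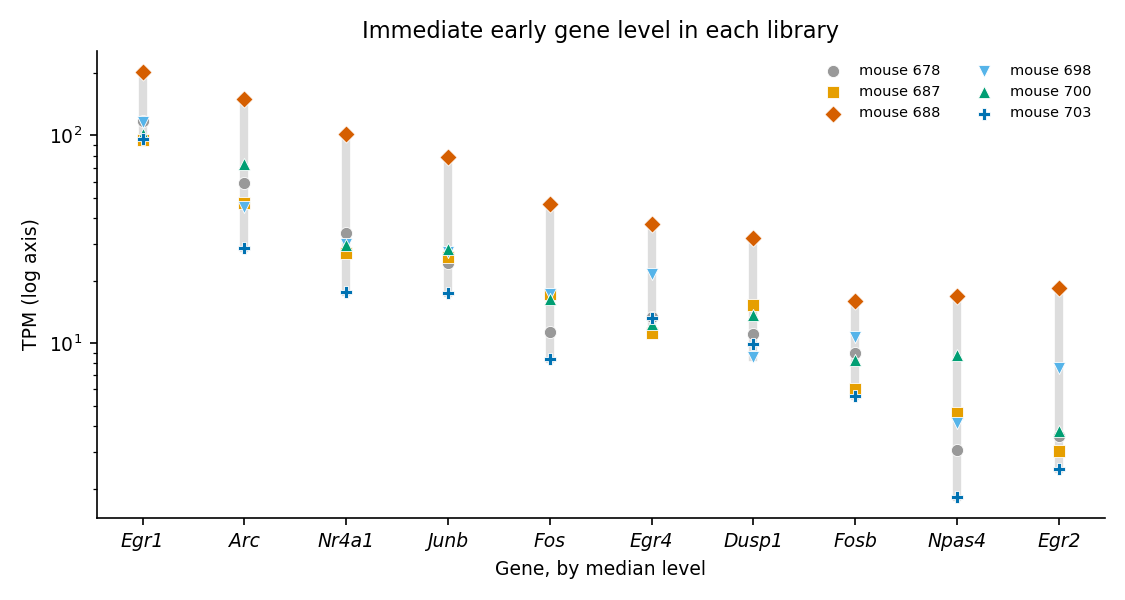
TPM (y axis, log scale) of each of the 10 genes (x axis, in order of median level) in the 6 libraries, with 1 symbol per mouse and a grey bar from the lowest to the highest library. Mouse 688 is on top for every gene, from 201.9 TPM for Egr1 to 16.04 TPM for Fosb.

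Egr1 was the most abundant of the 10 in TPM, with a median of 108.7, followed by Arc at 53.3, Nr4a1 at 30.03 and Junb at 26.8. These 4 genes stood in the same order in 6 of 6 libraries, and Junb was above Fos (median 16.8) in 6 of 6. Below them the order was not fixed. Fos was above Egr4 (13.3) in 3 of 6 libraries, Egr4 above Dusp1 (12.4) in 4, Dusp1 above Fosb (8.66) in 5 and Fosb above Npas4 (4.38) in 4. Egr2, with the lowest median at 3.68, was above Npas4 in the other 4 libraries.

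The AP-1 subunits differed in how far they moved. Fos (ENSMUSG00000021250, chromosome 12, 85473890 to 85477273 of GRCm38) was at 46.7 TPM in mouse 688, 17.3 in mice 687 and 698, 16.3 in mouse 700, 11.35 in mouse 678 and 8.39 in mouse 703. Mouse 688 was 2.69 times the next library, and the whole range was 5.56-fold. Junb, which pairs with Fos proteins (chromosome 8, 84974484 to 84978718), was at 78.8 TPM in mouse 688 and between 24.5 and 28.4 in mice 678, 687, 698 and 700, with 17.5 in mouse 703. A single library above, a tight middle of 4 and a single library below made up its 4.52-fold range. Fosb (chromosome 7, 19302696 to 19310051) was at 16.04 TPM in mouse 688, 10.7 in mouse 698, 8.97 in mouse 678, 8.35 in mouse 700, 6.05 in mouse 687 and 5.60 in mouse 703. Its values ran down in small steps, mouse 688 was 1.499 times the next library, and the range was 2.86-fold.

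The EGR family held both the smallest and one of the largest ranges. Egr1 (chromosome 18, 34859823 to 34864984), a transcription factor with high levels in unstimulated cortex, was at 201.9 TPM in mouse 688 and between 94.9 and 117.7 in the other 5 libraries. Its 2.13-fold range was the narrowest of the 10, and without mouse 688 it was 1.24-fold. Egr2 (chromosome 10, 67535475 to 67542188), also known for its role in Schwann cell myelination, was at 18.5 TPM in mouse 688, 7.59 in mouse 698, 3.79 in mouse 700, 3.57 in mouse 678, 3.03 in mouse 687 and 2.49 in mouse 703. Mouse 688 was above mouse 698, and mouse 698 in turn was above a group of 4, which gave a 7.41-fold range. Egr4 (chromosome 6, 85511121 to 85513589) followed the same order at the top, with 37.5 TPM in mouse 688 and 21.6 in mouse 698. The remaining libraries lay between 11.2 and 13.4, and mouse 703, at 13.3, was not the lowest.

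Npas4 (chromosome 19, 4984355 to 4990316), known to respond selectively to depolarization and calcium entry, had the widest range of the 10. It was at 16.9 TPM in mouse 688, 8.77 in mouse 700, 4.62 in mouse 687, 4.15 in mouse 698, 3.07 in mouse 678 and 1.83 in mouse 703, a 9.22-fold range that stayed at 4.79-fold without mouse 688. The lowest value rested on 178 expected counts, with an exact Poisson 95% interval of 152.8 to 206.2, so counting error is small beside this range. The lowest count of any other gene of the 10 was 204, for Egr2 in mouse 703. Arc (chromosome 15, 74669083 to 74672570), whose mRNA is carried into dendrites, was at 150.4 TPM in mouse 688, 73.0 in mouse 700, 59.3 in mouse 678, 47.2 in mouse 687, 45.05 in mouse 698 and 28.6 in mouse 703. As for Npas4, mouse 700 was second and mouse 703 last.

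Nr4a1 (chromosome 15, 101254269 to 101274795), also named Nur77, was at 101.5 TPM in mouse 688, between 27.2 and 33.8 in mice 678, 687, 698 and 700, and at 17.7 in mouse 703. Mouse 688 was 3.00 times the next library, the largest such step of the 10. Dusp1 (chromosome 17, 26505590 to 26562128) was at 32.0 TPM in mouse 688, 15.4 in mouse 687, 13.7 in mouse 700, 11.1 in mouse 678, 9.94 in mouse 703 and 8.55 in mouse 698. Dusp1 is also induced by glucocorticoids and cell stress. Of 9 other glucocorticoid targets, 2 were highest in mouse 688, Sgk1 and Per1, which is also among the other rapid genes described below. The sum of the 9 ran from 0.0436% to 0.0545% of TPM with 0.0464% in mouse 688. Of 8 heat shock genes, 0 were highest in mouse 688. The share over all detected genes was 6.39%, and lists this short say little beside it. Whether glucocorticoids or stress had a part in the levels of the 10 genes was not tested.

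**Figure D2:**
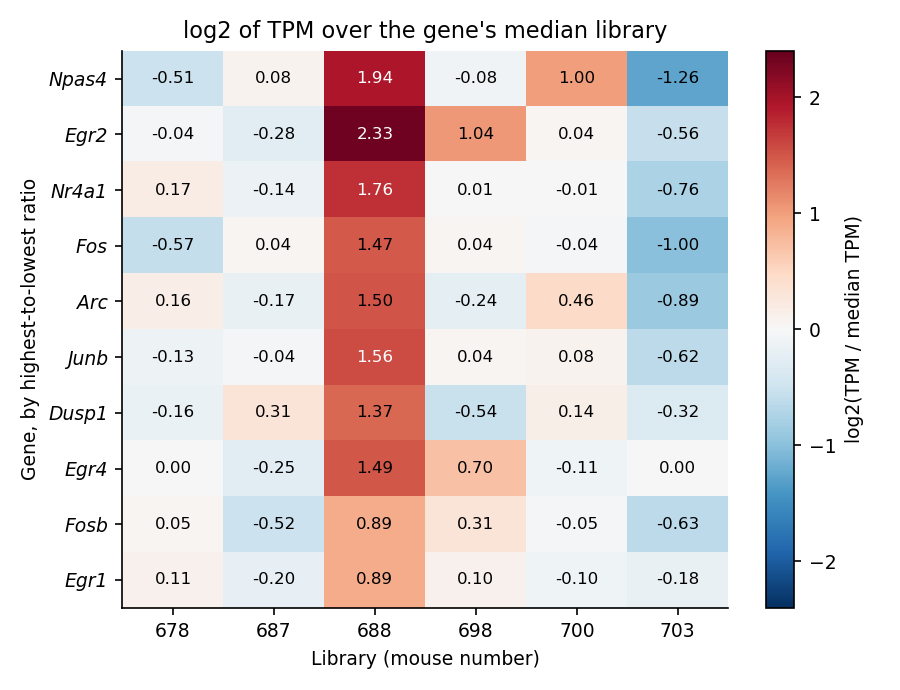
log2 of TPM over the gene's median of 6 libraries, for the 10 genes (y axis, widest range on top) in each library (x axis, mouse number), with colour and number giving the same value. Mouse 688 runs from 0.89 to 2.33, mouse 703 is at or below the median for all 10, and mice 698 and 700 are each raised for different genes.

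Set against its own median over the 6 libraries, the typical gene of the 10 was at 1.49 on the log2 scale in mouse 688 and at −0.62 in mouse 703. In the other 4 libraries this median lay between −0.16 and 0.04. Over all detected genes the same measure was 0.00 in mouse 688, 0.18 in mouse 703 and −0.17 in mouse 700. Nuclear protein-coding genes held 22.7% (mouse 700) to 28.8% (mouse 703) of TPM. The low values of mouse 703 for the 10 genes run against the shift of the library as a whole. With counts scaled by the trimmed mean of M values (TMM), mouse 688 was again highest for 10 of 10 genes, against 13.8% of detected genes. On that scale mouse 703 was lowest for 9 of 10, against 20.9%.

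The highest library was at least 2 times the lowest for 10 of the 10 genes, against 15.2% of detected genes. The median ratio was 4.88 over the 10 genes and 1.49 over all detected genes. Without mouse 688, 4 genes kept a ratio of at least 2, namely Fos at 2.06, Arc at 2.55, Egr2 at 3.05 and Npas4 at 4.79. Low counts widen ratios, so the spread was also measured relative to genes of like abundance, as its SD over libraries on the log2(CPM + 1) scale less the typical SD of genes of similar mean. By this excess spread, 10 of 10 were in the top 5%, a cut that holds 5.0% of detected genes by construction. Npas4 ranked 5, Egr2 10, Fos 15, Arc 25, Nr4a1 29, Junb 58, Dusp1 83, Egr4 120, Fosb 171 and Egr1 312 among the 14997. Without mouse 688, 9 of the 10 were still in the top 5%, and Egr1 was not.

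**Figure D3:**
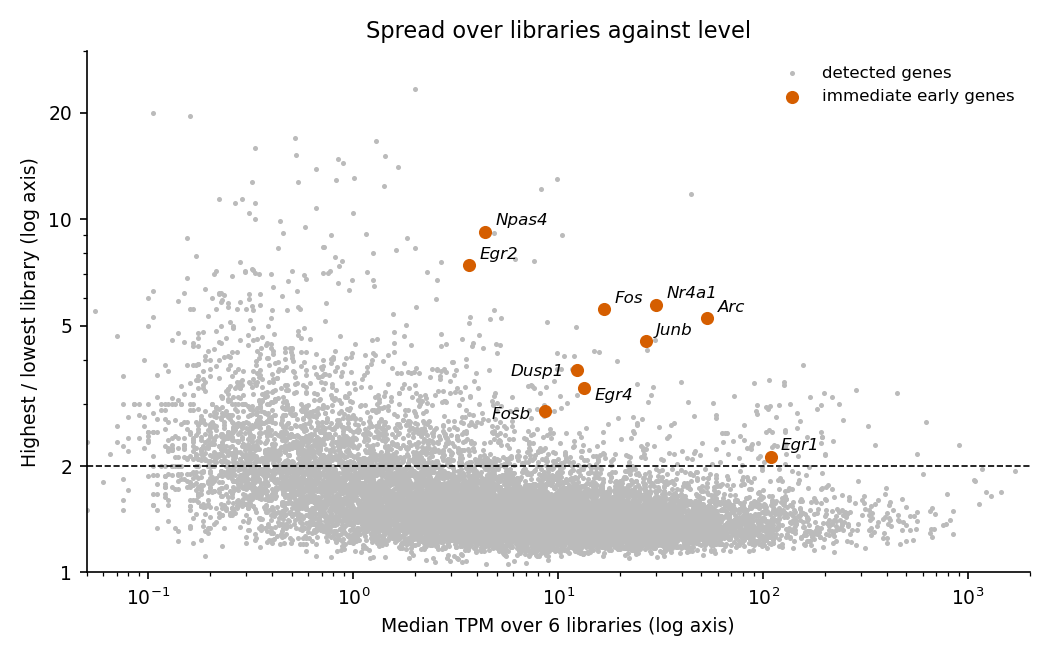
Highest library over lowest library in TPM (y axis, log scale) against median TPM (x axis, log scale) for detected genes (grey) and the 10 genes (orange), with 29 detected genes outside the axes. The dashed line marks a ratio of 2, and all 10 genes lie above it, from Egr1 at 2.13 to Npas4 at 9.22.

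Dixon's ratio, the gap between the highest library and the next divided by the whole range, passed its 95% limit for 6 values for 7 of the 10 genes, and mouse 688 was the library set apart each time. A highest library was set apart in this way for 6.0% of detected genes. Junb had the largest ratio at 0.823, then Nr4a1 at 0.807, Egr1 at 0.787, Fos at 0.767, Dusp1 at 0.7097, Egr2 at 0.681 and Arc at 0.635. Fosb at 0.511, Npas4 at 0.539 and Egr4 at 0.605 were under the limit, as a second library (698 or 700) lay part of the way up. On log2(TPM + 1), 3 genes passed, namely Egr1 at 0.716, Junb at 0.683 and Nr4a1 at 0.634.

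Below mouse 688 the 10 genes did not move as one. The second highest library was mouse 698 for Fosb, Egr2 and Egr4, mouse 700 for Junb, Arc and Npas4, mouse 687 for Fos and Dusp1, and mouse 678 for Egr1 and Nr4a1. Over 6 libraries, Pearson's r of log2 TPM ran from 0.568 (Fosb with Dusp1) to 0.982 (Junb with Nr4a1) over the 45 gene pairs, with 45 pairs above 0. These coefficients rest on mouse 688 and share its library, so they are given as a description. Without it, 39 of 45 pairs were above 0 and the range was −0.854 (Egr4 with Dusp1) to 0.924 (Fos with Junb). Without mice 688 and 703, 25 of 45 were above 0 and the median r fell from 0.873 over 6 libraries to 0.154. Each gene was also set against the median profile of the 10 genes, on log2(CPM + 1) after TMM scaling. Each gene is part of that profile, so a high r is partly built in. Junb was nearest to the median profile (r = 0.997, and 0.995 without mouse 688). Dusp1 (0.883 and 0.627) and Egr4 (0.890 and 0.476) were the farthest from it.

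The annotated transcripts of a gene did not always move together. The 10 genes have 38 annotated transcripts, of which 21 held at least 5% of their gene's median TPM, and 18 of the 21 were highest in mouse 688. As all 10 genes were highest there, this count largely repeats the result for the genes. The share over all detected transcripts was not counted. Nr4a1 gave the clearest split. Nr4a1-201, which starts at position 101266846, was at 95.4 TPM in mouse 688, 27.99 in mouse 678, 24.4 in mouse 698, 23.8 in mouse 700, 22.7 in mouse 687 and 14.1 in mouse 703. Nr4a1-202, which starts 12577 bases upstream and has a coding region of the same 601 codons, lay between 3.59 and 5.68 TPM with 4.29 in mouse 688. Its share of Nr4a1 was therefore 4.23% in mouse 688 and up to 20.3% in another library. The promoter printed above is that of Nr4a1-201.

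**Figure D4:**
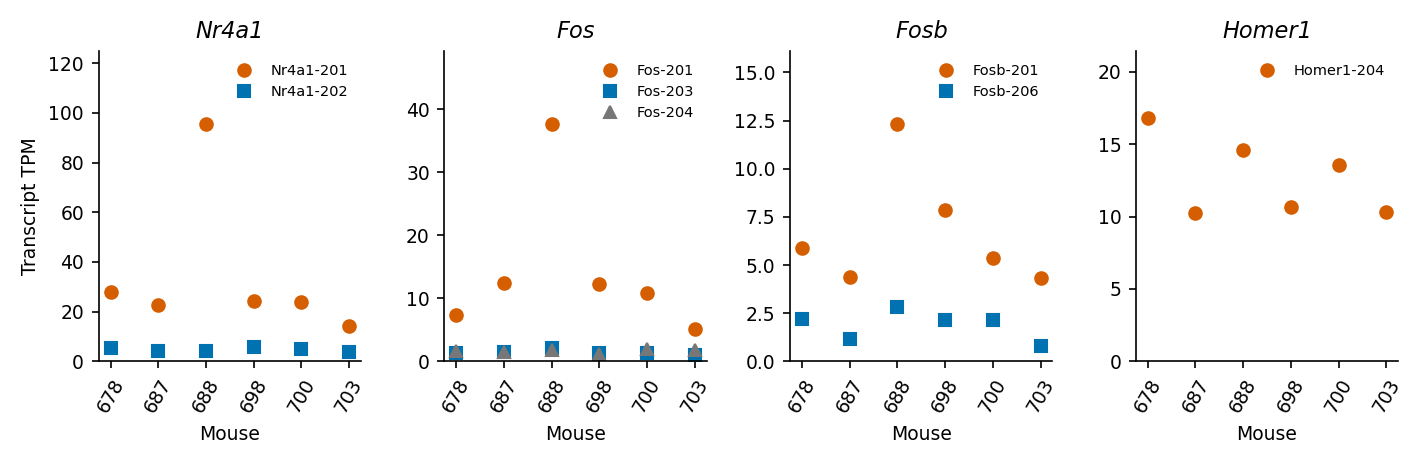
TPM of single transcripts (y axes, from 0, each panel on its own scale) in the 6 libraries (x axes, mouse number) for Nr4a1, Fos, Fosb and a short Homer1 transcript. Nr4a1-201 and Fos-201 peak in mouse 688, at 95.4 and 37.6 TPM, while Nr4a1-202 (3.59 to 5.68), Fos-204 (1.23 to 1.92) and Homer1-204 (10.3 to 16.8) do not.

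In Fos, 3 of the 4 records were highest in mouse 688. The coding transcript Fos-201 was at 37.6 TPM in mouse 688 and between 5.07 and 12.5 in the others, a 7.42-fold range. The others are annotated without a coding region. Fos-202 ran from 0.51 TPM in mouse 703 to 5.03 in mouse 688, a 9.86-fold range, but its lowest value rested on 8 expected counts. Fos-203 ran from 1.07 to 2.17 TPM, also with mouse 688 highest, and Fos-204 from 1.23 to 1.92 TPM with mouse 700 highest. These short records are part of the gene's TPM, and the range of Fos was 7.42-fold over protein-coding transcripts alone and 7.53-fold in TMM-scaled counts. Fosb is read as a full-length form, Fosb-201 with 338 codons, and as Fosb-206 with 237 codons. In Fosb-206, 140 bases of the last coding exon are spliced out (chromosome 7, 19305007 to 19305146), the change that defines the truncated and long-lived ΔFosB protein. Fosb-201 ran from 4.31 TPM in mouse 703 to 12.3 in mouse 688. Fosb-206 was at 2.83 in mouse 688, 2.19 in mouse 678, 2.15 in mouse 698, 2.13 in mouse 700, 1.14 in mouse 687 and 0.80 in mouse 703. The short form thus had no library far above the others, and it held 14.3% to 25.5% of Fosb.

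Both main Npas4 records followed the gene. Npas4-201, with 802 codons, ran from 0.85 TPM in mouse 703 to 8.85 in mouse 688, and Npas4-203, annotated as a target of nonsense-mediated decay, from 0.98 to 7.99 in the same mice. Arc-201 (18.9 to 104.8 TPM) and Arc-202 (9.78 to 45.6) encode 396 codons each, differ by 1 base in length and were both highest in mouse 688. Egr1-202 held 87.8% to 91.0% of Egr1 and Egr1-201 the rest, and both were highest in mouse 688. Egr2-201, the start of which is the promoter printed above, ran from 1.98 to 15.9 TPM, and Egr2-206, which starts upstream at position 67535583, from 0.35 to 1.78. Dusp1-202 was at 30.7 TPM in mouse 688 and 13.4 or less in the others. Dusp1-206 was at 3.24 TPM in mouse 687, 2.69 in mouse 703, 1.47 in mouse 698 and at most 0.01 in the remaining libraries. Reads shared by overlapping transcripts are divided by an estimate in RSEM, so transcript values carry more error than gene sums, and this error was not measured here. Minor transcripts also rested on few reads, with lowest expected counts of 8 for Fos-202, 12 for Egr2-206, 23 for Fos-203 and 26 for Fosb-206.

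Other genes of the same response were followed through lists that were also drawn up with earlier results of these data known. Of 30 other rapid immediate early genes, 28 were detected, and 20 of the 28 were highest in mouse 688. A ratio of at least 2 was seen for 18 of the 28. The shares over all detected genes were 6.39% and 15.2%. Their median in mouse 688 was 0.66 on the log2 scale relative to the median library, against 1.49 for the 10 genes. Ccn1, which encodes a secreted matrix protein, had the widest range, with 12.4 TPM in mouse 688, 4.26 in mouse 687, 3.24 in mouse 700, 2.11 in mouse 698, 1.82 in mouse 678 and 1.64 in mouse 703. Btg2, an antiproliferative gene, was at 13.1 TPM in mouse 688 and between 3.03 and 6.98 in the others, and Ier2, a rapidly induced nuclear protein, at 8.44 against 1.79 to 4.50. The 8 that were not highest in mouse 688 included Jun, Jund, Egr3 and Klf6. Egr3, a close relative of Egr1, was at 66.3 TPM in mouse 678, 64.5 in mouse 688, 62.5 in mouse 700, 48.6 in mouse 698, 45.3 in mouse 687 and 41.7 in mouse 703. Atf3 and Maff were under the count filter, with at most 0.52 TPM in any library.

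Genes that are known to rise later after activity, such as Bdnf, Nptx2 and Vgf, were followed in a list of 16. Of these, 3 were highest in mouse 688 (Bdnf, Ptgs2 and Plk2), beside 6.39% of all detected genes, and 1 had a ratio of at least 2, beside 15.2%. Their median in mouse 688 was 0.00, as over all detected genes. Bdnf, a neurotrophin, was at 7.86 TPM in mouse 688, 7.31 in mouse 703, 6.07 in mouse 678, 5.36 in mouse 698, 5.01 in mouse 687 and 4.81 in mouse 700. The widest ranges of this list were those of Inhba, a subunit of activin, at 2.67-fold, Scg2, a granin of dense-core vesicles, at 1.81-fold, and Nptx2, a secreted pentraxin, at 1.71-fold. Inhba was lowest in mouse 688, at 1.46 TPM. The short transcript Homer1-204, with 186 codons, is the activity-induced form known as Homer1a. It was at 16.8 TPM in mouse 678, 14.6 in mouse 688, 13.6 in mouse 700, 10.6 in mouse 698 and 10.3 in mice 687 and 703.

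**Figure D5:**
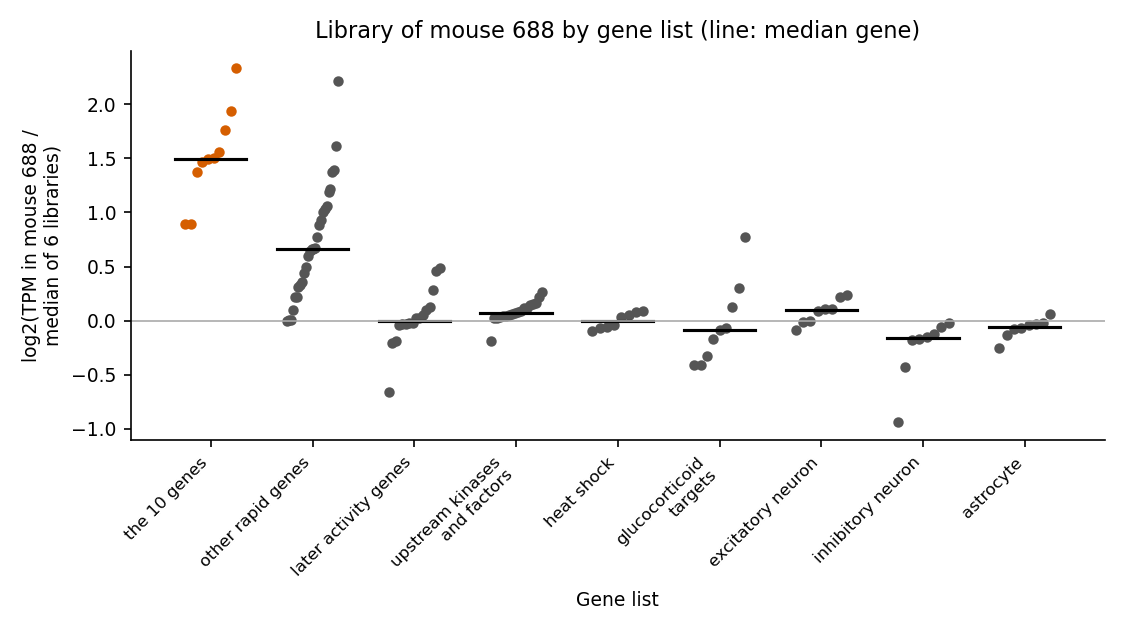
log2 of TPM in mouse 688 over the median of 6 libraries (y axis) for each detected gene (points) of 9 lists (x axis), with a line at the list's median. The medians are 1.49 for the 10 genes, 0.66 for other rapid genes and between −0.16 and 0.10 for the other 7 lists shown. Of the lists not shown, blood (2 detected genes) was at −3.1, oligodendrocyte at −0.19 and the rest between −0.09 and 0.10.

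Of 18 upstream kinases and transcription factors, including Creb1, Srf, Elk1, Mef2c and Camk4, 0 were highest in mouse 688 and 0 had a ratio of at least 2, beside 6.39% and 15.2% of all detected genes. In a list of this size, 0 genes highest in mouse 688 is close to that share. Atf1 had the widest range among them at 1.95-fold, then Mapk3 at 1.88 and Map2k1 at 1.76. Their median in mouse 688 was 0.07. Among 7 genes whose products pair with those of the 10 or bind them, Fosl2, an AP-1 subunit that is also one of the 30 rapid genes, ran from 9.22 TPM in mouse 703 to 20.3 in mouse 688. Nab2, a corepressor of EGR proteins, ran from 8.39 to 16.8 TPM with the highest value also in mouse 688, and Jun had a 1.79-fold range with its highest value in mouse 703.

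Over all detected protein-coding genes with a range of at least 2-fold in log2(CPM + 1) after TMM scaling (372 genes besides the 10), the 10 nearest to the members' median profile were Gadd45b, Dusp5, Arl4d, Trib1, Pim3, Ier2, Ccn1, Fosl2, Gadd45g and Klf4, with Pearson's r from 0.981 to 0.894 over 6 libraries. Of these, 8 were on the list of other rapid genes, and Arl4d and Pim3 were on none. That list holds 28 of the 14997 detected genes, and its share among the 372 was not counted. It was drawn up with earlier results of these data known, so this count is not separate support. Gadd45b was at 11.0 TPM in mouse 688 and between 3.69 and 5.56 in the other 5. Arl4d, a small GTPase of the ARF family, was at 15.2 TPM in mouse 688 and between 6.14 and 8.34 in the others. Pim3, a serine/threonine kinase, was at 13.0 against 6.90 to 9.77. These coefficients rest on mouse 688 as well. Without it, the 10 nearest genes shared 1 with this set, Ier2.

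Other measures also differed between the libraries. Haemoglobin mRNA was lowest in mouse 688, where Hbb-bs was at 0.95 TPM and Hba-a2 at 1.16, followed by mouse 700 at 1.92 and 2.81. In the other 4 libraries Hbb-bs was at 8.04 to 11.6 TPM and Hba-a2 at 9.28 to 15.1. The 8 inhibitory neuron markers summed to 0.0380% of TPM in mouse 688 and 0.0437% to 0.0497% in the others, and Pvalb, the widest of them, was at 12.7 TPM in mouse 688, 14.7 in mouse 703 and 22.0 to 33.6 in the others. The 8 excitatory neuron markers summed to 0.0924% to 0.133% with 0.111% in mouse 688. Of 9 markers of hippocampus and striatum, 5 had a ratio of at least 2, beside 15.2% of all detected genes. The widest of these ratios rest on low values, with Adora2a and Drd2 both at 0.29 TPM in mouse 700. Adora2a and Drd2 were highest in mouse 687 (4.29 and 3.03 TPM) and second in mouse 688 (1.89 and 1.58), and C1ql2 ran from 0.46 TPM in mouse 703 to 3.81 in mouse 678. The sums of astrocyte, microglia, oligodendrocyte and endothelial markers in mouse 688 lay within the range of the other libraries. Mouse 688 was the highest library for 0 of 8 genes in each of these lists except the endothelial one, where it was highest for 1 of 8. The share over all detected genes was 6.39%, and lists this short say little beside it. The part of these differences in the levels of the 10 genes was not tested.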

How the data were processed

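RNA-seq of 6 mouse libraries was analysed from the authors' transcript tables. Per the submitters' notes, the authors used cutadapt for trimming, STAR for alignment to mm10 and RSEM for quantification, with no versions stated. Expected counts without normalization and TPM over all transcripts were deposited for each transcript. A further 18 value columns were not used.

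Transcripts were matched to GENCODE M21 (99.36% of 142351) and summed per gene. Symbols with several records kept the one with more counts. Library totals were 34689262 to 44463362 expected counts, with a median of 40566108. Counting error is therefore small for the sums of the 10 genes but larger for their minor transcripts, and intervals cover counting error only. Scaling used TMM from edgeR 4.0.16 in R 4.3.3, with rounded sums. DESeq2 1.42.0 size factors, other units, filters and leaving out each library were alternatives. The spread measures were tried on simulated counts in which known genes were raised in a single library. The simulation used the same dispersion for all genes and drew each gene independently. It therefore does not show how the measures behave on these data. As the libraries carry no genotype, no group was compared. The members and gene lists were chosen with earlier results of these data known. The rule for other named genes took the 3 widest ranges of each list and the 10 genes most like the members. Marker genes from it are printed where a result turns on them. Others named in the text, such as Egr3, Bdnf and Homer1-204, were chosen after their values were seen.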

Additional observations from a re-analysis of the deposited data

Results flagged for a closer look

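A library far from the other 5 by Dixon's ratio (95% limit for 6 values) was found for 7 of the 10 genes, with mouse 688 on the high side: Fos (0.767), Junb (0.823), Arc (0.635), Egr1 (0.787), Egr2 (0.681), Nr4a1 (0.807) and Dusp1 (0.7097). The summed TPM of the 10 genes gave 0.810 and that of the other rapid genes 0.649, both with mouse 688 highest. For normal values, chance sets about 1 in 20 groups of 6 apart, counting both ends. On the high side alone, 6.0% of detected genes were set apart in TPM. The genes share libraries, so these are not separate events. Among transcripts, the ratio was 0.648 for Arc-201, 0.725 for Dusp1-202, 0.798 for Egr1-202, 0.632 for Egr2-201, 0.755 for Egr2-206, 0.772 for Fos-201, 0.664 for Fos-203, 0.825 for Junb-201 and 0.829 for Nr4a1-201, again with mouse 688 highest. Egr2-206 and Fos-203 rested on few reads, with lowest expected counts of 12 and 23. Of the other named genes, mouse 688 was set apart on the high side for Arl4d (0.756), Ccn1 (0.757), Gadd45b (0.744) and Trib1 (0.813). Mouse 703 was set apart on the high side for Gad2, at 28.3 TPM against 16.2 to 19.7 in the others (0.708), and for Scg2, at 70.7 TPM against 39.0 to 46.6 (0.760).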

How the results depend on the processing

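In every unit and scaling tried, 10 of 10 genes had mouse 688 highest and a ratio of at least 2, and 10 were in the top 5% of excess spread, also with a pseudocount of 0.25 or when genes with 1 count in some library were kept. The summed genes spanned a ratio of 3.48 as TPM, 4.11 over nuclear protein-coding TPM, 3.65 as a share of counts, 3.87 with TMM, 3.87 with DESeq2 size factors and 3.47 with protein-coding transcripts only. A library was set apart by Dixon's ratio for 6 or 7 genes in these units and for 3 on log2(TPM + 1). With genes of 1 count in some library kept, 53.6% of genes had a ratio of at least 2, in place of 15.2%. Leaving out 1 library at a time gave a summed ratio of 1.47 (without mouse 688) to 3.48, and 2.77 without mouse 703. Genes with a ratio of at least 2 were 4 (without mouse 688) to 10, genes with the same library highest 3 (without mouse 688) to 10, and genes in the top 5% of spread 9 to 10. Genes with a library set apart were 2 to 7 (2 without mouse 688, Egr2 and Egr4 with mouse 698 high, and 4 without mouse 678). Of the 10 genes most like the members, 1 remained without mouse 688. For single genes, 50 of 50 ratios in other units stayed within 1.5 times, and leaving out a library moved 12 of 60 further, without mouse 688 for 9 genes and without mouse 703 for Arc, Npas4 and Nr4a1. No paired analysis was possible because the mouse numbers are tied to no replicate number in the sources used here. With 6 libraries of unknown genotype, no error over replicates can be given.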
